A study of Rattus norvegicus with 6 samples.

Results

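The erythroid and muscle miRNAs were examined in small RNA libraries made from extracellular vesicles (EV; the labels say exosomal) and from RNA inside the cells (Intracellular) of fibroblasts from rat sciatic nerve. Members were the rows of the count table whose name is an arm of miR-451, miR-486 or miR-144 (erythroid) or of miR-1, miR-133a, miR-133b, miR-206 or miR-499 (muscle). This gave 10 of 1071 rows, 4 erythroid and 6 muscle. The rule reads the names of the rows and none of their values, though the list was drawn up with earlier results of these data known. All samples came from wild-type, untreated nerve fibroblasts in 1 batch, 3 of EV and 3 of Intracellular RNA, the controls. The labels give no age and no culture medium. Nothing in them states that replicates came from different cultures or animals. The p-values therefore reflect the spread of these libraries alone, and that spread may be technical.

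miRNAs are short RNAs that guide Argonaute proteins to messenger RNAs, chiefly through the seed at their 5′ end. miR-144 and miR-451 are cut from a shared erythroid transcript under control of GATA1, and miR-451 is matured by Argonaute 2 without Dicer. miR-486 comes from the ankyrin gene Ank1 and is abundant in red cells, but it is also made in striated muscle, so it does not belong to blood alone. miR-1 and miR-133a are shared by heart and skeletal muscle, miR-206 and miR-133b belong to skeletal muscle, and miR-499 lies within the slow myosin gene Myh7b. In the RefSeq gene table (GRCr8) Mir144 and Mir451a were the nearest miRNA genes to each other, as were Mir206 and Mir133b, and Mir499a lay within Myh7b.

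Mature sequences are shown for 7 members and for miR-1b, a relative that is no member, since seeds and near-identical partners bear on how reads can be told apart. They are given 5′ to 3′ as DNA letters from the deposited table, with the seed (bases 2 to 8) in capitals.
miR-486: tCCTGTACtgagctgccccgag
miR-451-5p: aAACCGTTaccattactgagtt
miR-206-3p: tGGAATGTaaggaagtgtgtgg
miR-1-3p: tGGAATGTaaagaagtgtgtat
miR-1b: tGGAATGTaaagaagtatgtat
miR-133a-3p: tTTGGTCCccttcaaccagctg
miR-133b-3p: tTTGGTCCccttcaaccagcta
miR-499-5p: tTAAGACTtgcagtgatgttt
Of the 10 members, 9 (all but miR-486) were matched to RefSeq (GRCr8), with the same sequence. The members carried 8 different seeds. miR-206-3p and miR-1-3p shared a seed, which among known miRNAs of the table was otherwise found only in miR-1b, a close relative outside the rule. Counted from the 5′ end, miR-206-3p differed from miR-1-3p by A11G, A21G and T22G, all outside the seed. miR-1b differed from miR-1-3p by G17A alone. miR-133b-3p differed from miR-133a-3p by G22A alone, so counts of these pairs can be mixed by sequencing errors or trimming. For miR-486, miR-451-5p and miR-499-5p the nearest other row had 8 or more mismatches when rows were aligned at the 5′ end. GC content was 63.6% in miR-486, 45.5% in miR-206-3p, 36.4% in miR-451-5p and 33.3% in miR-499-5p.

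The EV libraries held 81211 to 105578 counts and the Intracellular libraries 1839047 to 8859302. Levels are given as CPM, the counts per 1000000 counts of a library. The members are all 20 to 23 bases long, so no length term was needed, but adapter ligation favours some sequences over others. A single count stood for 9.47 to 12.3 CPM in EV libraries and for 0.113 to 0.544 CPM in Intracellular ones. A count of 0 in pooled EV libraries allows up to 10.7 CPM (3 counts). Such limits and all 95% intervals below cover counting error only. The 8 miRNAs listed as mesenchymal summed to 440956 to 465565 CPM in the EV libraries and 475402 to 496309 CPM in the Intracellular ones. The sum was chiefly miR-143-3p and miR-21-5p and gives a scale, not a test of fibroblast identity. The TMM factor, edgeR's scaling for composition, set Intracellular replicate 1 apart, at 0.557 against 0.964 and 0.935 in replicates 2 and 3.

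The members were rare in every library. Together they took 27, 42 and 29 counts in EV replicates 1, 2 and 3, which is 0.0332%, 0.0398% and 0.0314% of counts. In Intracellular replicates 1, 2 and 3 they took 177, 601 and 1631 counts, or 0.00962%, 0.0181% and 0.0184%. The erythroid arms summed to between 151.5 and 221.6 CPM in EV, against 2.26 to 6.53 CPM in the cells. The EV sum was chiefly miR-486, which is not of blood alone, with 39 of 49 pooled counts. The rest was miR-451-5p. The muscle arms summed to between 110.8 and 246.3 CPM in EV, against 89.7 to 181.8 CPM in the cells, and these ranges overlapped. Most of the Intracellular sum of the muscle arms was miR-499-5p.

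miR-486 (listed as rno-miR-486) was the most abundant member in EV. It had 14, 13 and 12 counts in EV replicates 1, 2 and 3, equal to 172.4, 123.1 and 130.0 CPM. The Intracellular replicates had 8, 4 and 11 counts, in the same order, equal to 4.35, 1.21 and 1.24 CPM. The lowest EV library was far above the highest Intracellular one, which was replicate 1. miR-486 passed the filter on low counts (given below) through its EV libraries alone, so its groups could not overlap. The fits that follow, also those without a library, share that selection. The mean was 141.8 ± 26.7 CPM in EV, against 2.27 ± 1.80 CPM inside the cells (SD, n = 3). The edgeR log2 fold change, EV minus Intracellular, was 5.69 (SE 0.60, Benjamini-Hochberg adjusted p = 2.92e-07). It was 6.41 (adjusted p = 6.79e-13) without Intracellular replicate 1 and 5.06 (adjusted p = 1.5e-06) without Intracellular replicate 3. Among the 388 known miRNAs with EV counts it ranked 158, and among the 548 with Intracellular counts it ranked 368.

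miR-451-5p (rno-miR-451-5p), the other erythroid member found in EV, was higher there too, but from very few counts. It had 4, 3 and 3 counts in EV replicates 1, 2 and 3, equal to 49.3, 28.4 and 32.5 CPM. Its Intracellular counts were 3, 13 and 7, equal to 1.63, 3.92 and 0.790 CPM. Intracellular replicate 2 was the highest of its group. miR-451-5p too passed the filter on low counts through its EV libraries alone, so its groups could not overlap. The fits that follow share that selection. The edgeR log2 fold change was 3.71 (SE 0.80, adjusted p = 0.00121). It was 4.51 (adjusted p = 2.82e-05) without Intracellular replicate 2 and 2.97 (adjusted p = 0.00141) without Intracellular replicate 3, and the weakest call was without EV replicate 1 (3.52, adjusted p = 0.0385). The mean was 36.7 ± 11.0 CPM in EV, against 2.12 ± 1.62 CPM inside the cells (SD, n = 3).

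Neither arm of miR-144, the neighbour of miR-451, had a count in EV. miR-144-3p had 2 counts in Intracellular replicate 3 and 0 in the others, and miR-144-5p had 1 and 3 counts in Intracellular replicates 1 and 2. At the pooled Intracellular level of these arms, 0.0398 and 0.0797 counts would be expected over the 3 EV libraries, so their absence from EV says nothing of a fold. miR-451-5p made up 10 of 10 counts of miR-451-5p and miR-144 in EV (exact 95% interval from 69.2% up) and 23 of 29 in the cells (60.3% to 92.0%). These intervals overlapped.

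miR-206-3p (rno-miR-206-3p), of skeletal muscle, was the muscle member that was higher in EV. It had 3, 14 and 8 counts in EV replicates 1, 2 and 3, equal to 36.9, 132.6 and 86.6 CPM. The cells gave 7, 7 and 21 counts in the same order, equal to 3.81, 2.11 and 2.37 CPM. The EV libraries differed more among themselves than for miR-486, with replicate 2 the highest. miR-206-3p also passed the filter on low counts through its EV libraries alone, so its groups could not overlap. The fit that follows shares that selection. The mean was 85.4 ± 47.8 CPM in EV, against 2.76 ± 0.913 CPM inside the cells (SD, n = 3). The edgeR log2 fold change was 4.52 (SE 0.60, adjusted p = 5.49e-06).

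**Figure D1:**
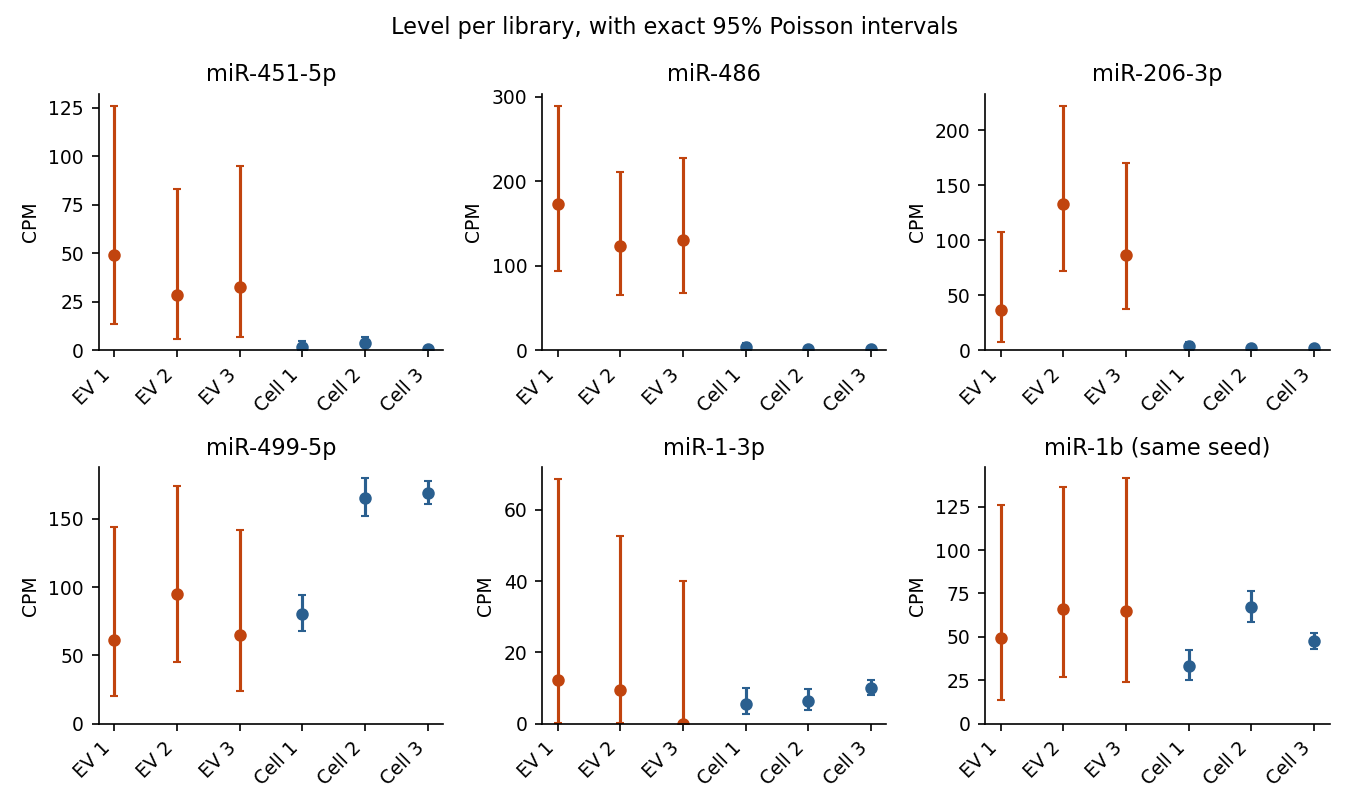
Level in CPM of 5 members and of miR-1b, which shares the seed of miR-206-3p, in each EV library (EV, orange) and each Intracellular library (Cell, blue), with exact 95% Poisson intervals. miR-486, miR-206-3p and miR-451-5p stand above every Intracellular library in all 3 EV libraries, while miR-499-5p, miR-1-3p and miR-1b overlap between the groups.

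The row listed as miR-1-3p did not share the pattern of miR-206-3p. It had 1, 1 and 0 counts in EV replicates 1, 2 and 3. In the Intracellular replicates it had 10, 21 and 88 counts, equal to 5.44, 6.34 and 9.93 CPM. The pooled level in EV over that in Intracellular libraries was 0.844 (exact 95% interval 0.101 to 3.12), against 35.9 (20.6 to 61.6) for miR-206-3p. miR-1b, which differs from miR-1-3p by 1 base, had more counts, 17 in EV and 706 in Intracellular libraries. The rule left miR-1b out of the muscle sums, so the low counts of miR-1-3p do not stand for the miR-1 rows together. miR-1b had a mean of 60.2 ± 9.49 CPM in EV, against 49.3 ± 17.0 CPM inside the cells (SD, n = 3). Its edgeR log2 fold change was -0.31 with TMM scaling (adjusted p = 0.647) and 0.29 with total counts (adjusted p = 0.754), so its sign turned with the scaling and neither passed the test.

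Among the other muscle arms, miR-133a-3p had 1 count in EV replicate 2 and 0, 2 and 3 counts in the Intracellular libraries. Its pooled ratio was 10.0 with an exact 95% interval of 0.212 to 89.7, which leaves the direction unknown at this depth. miR-133b-3p, which neighbours miR-206 in the genome, had 0 EV counts and 2 Intracellular counts, both in replicate 2. miR-499-3p had 0 EV counts and 1 count each in Intracellular replicates 2 and 3. Of the related miR-208 family, whose hosts are cardiac and slow myosin genes, 1 of 4 listed arms was in the table, miR-208b-3p, with 1 count in Intracellular replicate 3.

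miR-499-5p (rno-miR-499-5p) was the most abundant member inside the cells. It had 148, 548 and 1498 counts in Intracellular replicates 1, 2 and 3, equal to 80.5, 165.4 and 169.1 CPM. In EV it had 5, 10 and 6 counts, equal to 61.6, 94.7 and 65.0 CPM. The groups overlapped, since Intracellular replicate 1 lay below EV replicate 2. With TMM scaling it fell in EV by 1.48 on the log2 scale (SE 0.31, edgeR adjusted p = 0.000945). With total-count scaling the log2 fold change was -0.90 (SE 0.48, adjusted p = 0.165), so the call depended on the scaling. Over all tested miRNAs the median log2 fold change moved from -0.07 with TMM to 0.55 with total counts, a shift of 0.61. In the cells it ranked 143 among known miRNAs, and it held 2194 of the 2196 Intracellular counts of both miR-499 arms.

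**Figure D2:**
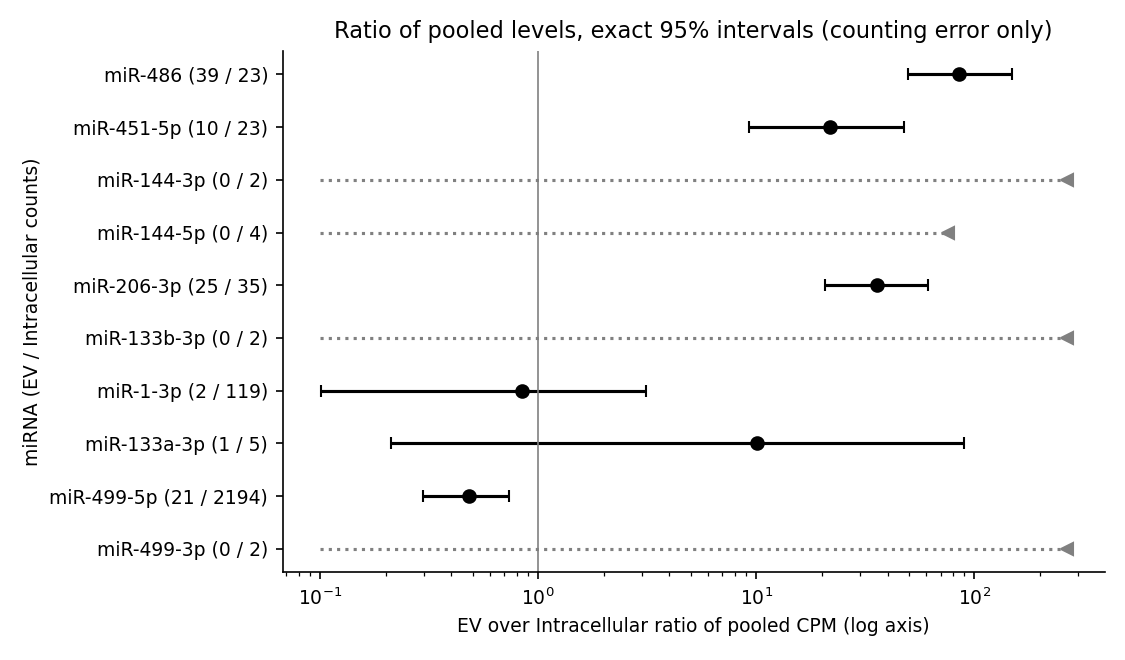
Ratio of the pooled EV level to the pooled Intracellular level (log axis) for the 10 members, with their pooled counts in brackets and exact 95% intervals for counting error only; grey arrowheads mark the upper bound for arms with 0 EV counts. miR-486 (85.1), miR-206-3p (35.9) and miR-451-5p (21.8) lie above 1, miR-499-5p (0.480) lies below 1, and the other intervals include 1.

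The filter on low counts decided which members were tested. It kept miRNAs at 10.3 CPM or more in at least 3 libraries, and 4 of the 10 members passed. miR-486, miR-206-3p and miR-451-5p passed through their EV libraries alone, with 0 Intracellular libraries over the limit, so they had to differ to be tested at all, while miR-499-5p passed in all 6 libraries. Over all 328 miRNAs tested, TMM scaling gave 25.3% higher and 17.1% lower calls in EV, against 3 and 1 of the 4 members tested. With total counts 32.6% were higher and 1.22% lower, against 3 and 0 of these members. CPM did not overlap between the groups for 41.8% with EV higher and for 3.66% with EV lower, again against 3 and 0 members. With no filter all 10 members were tested: 3 were called higher and 1 lower, the same ones, against 18.4% higher and 6.63% lower over all 1071 rows. The 6 others had edgeR adjusted p-values of 0.603 to 0.841, and 0 of them had an unadjusted p under 0.05.

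**Figure D3:**
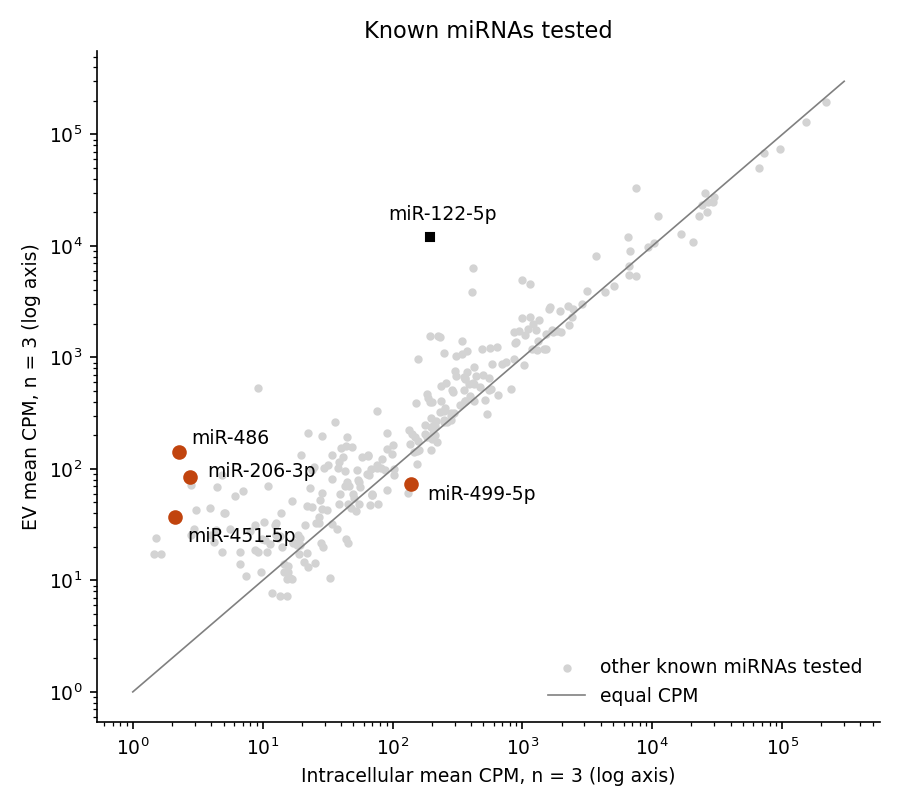
Mean CPM in EV against mean CPM in Intracellular libraries (log axes, n = 3 each) for the 290 known miRNAs tested; orange points are the 4 members tested and the black square is miR-122-5p. miR-486, miR-206-3p and miR-451-5p lie at the left edge, at 2.12 to 2.76 CPM in Intracellular libraries, and miR-499-5p lies below the line of equal CPM.

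Ratios within a library do not depend on how libraries are scaled. They reuse the counts behind the fold changes, so they are not separate support. Of the counts of the 3 miRNAs with the seed of miR-206-3p, this miRNA took 37.5%, 63.6% and 57.1% in EV replicates 1, 2 and 3. Inside the cells it took 8.97%, 2.80% and 3.95%. The groups did not overlap, although the interval of EV replicate 1, from 3 of 8 counts, was 8.52% to 75.5%. Pooled, the share was 25 of 44 counts in EV (exact 95% interval 41.0% to 71.7%) and 35 of 860 in Intracellular libraries (2.85% to 5.61%).

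The balance of the erythroid pair was less clear. miR-486 took 77.8%, 81.2% and 80.0% of the counts of miR-486 and miR-451-5p in EV replicates 1, 2 and 3. Inside the cells it took 72.7%, 23.5% and 61.1%. All EV libraries were above all Intracellular ones, but Intracellular replicate 1 lay close to them. The pooled shares were 39 of 49 counts in EV (65.7% to 89.8%) and 23 of 46 in Intracellular libraries (34.9% to 65.1%).

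**Figure D4:**
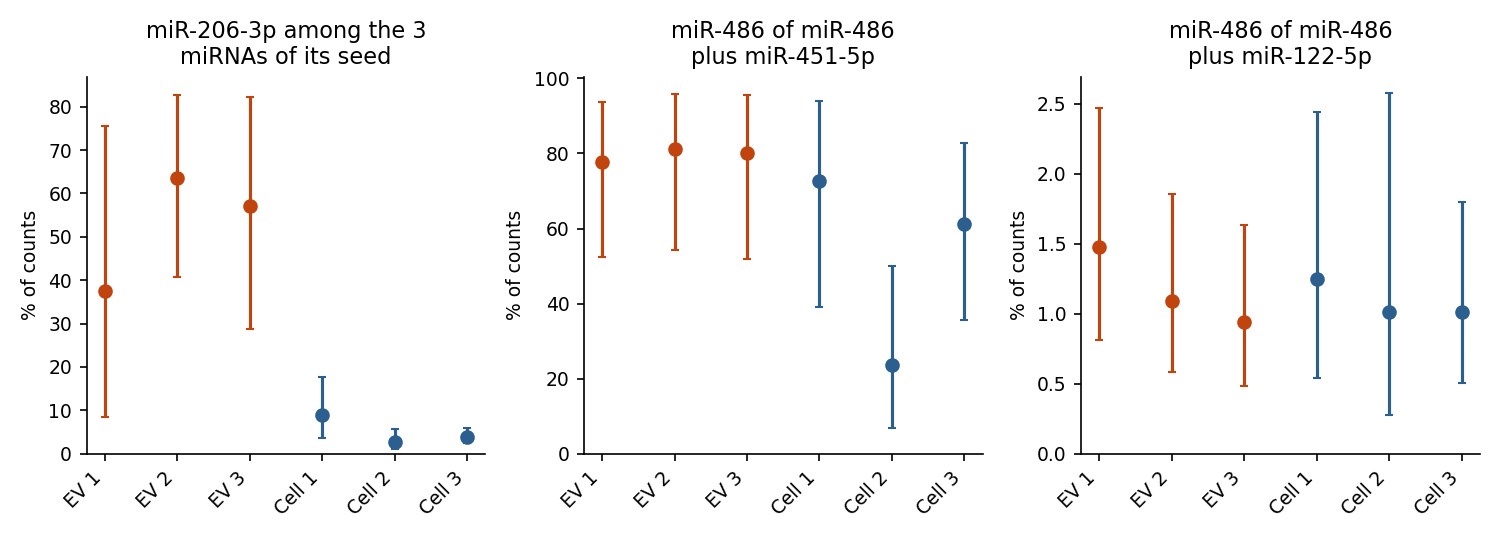
Shares of counts within each EV library (EV, orange) and each Intracellular library (Cell, blue), with exact 95% binomial intervals: miR-206-3p among the 3 miRNAs of its seed (left), miR-486 among miR-486 and miR-451-5p (middle) and miR-486 among miR-486 and miR-122-5p (right). The left share is 37.5% or more in EV and 8.97% or less in Intracellular libraries, while the right share is 0.938% to 1.48% in EV and 1.01% to 1.25% in Intracellular libraries.

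The miRNAs most like each tested member were found by Pearson's r of log2 CPM over the 6 libraries, among 286 other known miRNAs. These values are descriptions, and the 6 libraries fall into 2 groups that differ in depth as well as in source. For miR-486 they were miR-122-5p, the main miRNA of liver cells (0.997), miR-27a-3p (0.993) and miR-148a-3p (0.991). For miR-206-3p they were miR-501-3p (0.975), miR-148a-3p (0.969) and miR-122-5p (0.962). For miR-451-5p they were miR-34c-5p (0.995), miR-29a-3p (0.971) and miR-22-5p (0.964). For miR-499-5p, which moved the other way, they were miR-1193-3p (0.979), miR-145-5p (0.966) and miR-152-5p (0.958).

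miR-122-5p moved with miR-486 in the 2 groups. There were 66.6, 90.6 and 105.6 counts of miR-122-5p for each count of miR-486 in EV replicates 1, 2 and 3. In the Intracellular replicates there were 79.2, 97.5 and 98.0. The ranges overlapped. Between the groups the pooled level of miR-122-5p differed 80.6-fold (exact 95% interval 76.4 to 85.2) and that of miR-486 differed 85.1-fold (49.6 to 149.3). Pooling gives most weight to Intracellular replicate 3, the deepest library, and these intervals leave out the spread between libraries. The edgeR log2 fold change of miR-122-5p was 5.09 with TMM (SE 0.91, adjusted p = 0.0129) and 5.97 with total counts (SE 0.46, adjusted p = 1.05e-06). In the Intracellular libraries miR-122-5p was at 344.7, 117.7 and 121.7 CPM, and replicate 1 was the highest, as for miR-486. The ratio to miR-451-5p was less even, at 233 to 422 in EV and 30.0 to 211 in Intracellular libraries, as was that to miR-206-3p, at 84.1 to 311 in EV and 51.3 to 90.6 inside the cells. The other 2 miRNAs of the liver and serum list were not called by edgeR under either scaling. miR-192-5p had log2 fold changes of 0.15 with TMM and 0.73 with total counts (adjusted p = 0.666 and 0.189), and miR-194-5p had 0.14 and 0.72 (adjusted p = 0.725 and 0.225). This comparison was chosen after the values were seen.

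Markers of other cells were counted beside the members. Of 8 miRNAs abundant in red cells but not restricted to them, 1 was called higher and 1 lower in EV by edgeR with TMM scaling, and 2 were higher and 0 lower with total counts. Over all tested miRNAs the shares were 25.3% higher and 17.1% lower with TMM, and 32.6% and 1.22% with total counts. Calls among 8 miRNAs do not set this list apart from those shares. Higher under both was miR-92a-3p, at 64.0 ± 40.6 CPM in EV against 7.07 ± 0.932 CPM inside the cells (SD, n = 3; edgeR log2 fold change 2.53 with TMM, adjusted p = 0.00126). miR-22-3p, at 12145 ± 724 CPM in EV against 6462 ± 1964 CPM inside the cells, was called with total counts (0.91, adjusted p = 0.0012) but not with TMM (0.31, adjusted p = 0.257). miR-25-3p, at 1629 ± 51.5 against 1519 ± 391.9 CPM, was called lower with TMM (-0.53, adjusted p = 0.0263), but its sign turned with total counts (0.10, adjusted p = 0.846). miR-16-5p, also abundant in red cells, had 540.1 ± 67.1 CPM in EV against 469.8 ± 231.7 CPM inside the cells (SD, n = 3), and its log2 fold change also turned, from -0.35 with TMM (edgeR adjusted p = 0.257) to 0.20 with total counts (adjusted p = 0.758). The median log2 fold change of the list was -0.31, or 0.28 with total counts, beside medians of -0.07 and 0.55 over all tested miRNAs. The list summed to between 17248 and 18586 CPM in EV, against 7327 to 13597 CPM inside the cells, chiefly as miR-22-3p.

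Of 8 platelet and leukocyte miRNAs, 5 were tested and 0 were called by edgeR with TMM scaling, by DESeq2 or by limma-voom. In each of these, 1 had an unadjusted p under 0.05, miR-155-5p, which with total-count scaling was called higher, by 1.21 on the log2 scale (edgeR adjusted p = 0.026). miR-223-3p, the defining miRNA of myeloid cells and platelets, had 0 EV counts and 6 Intracellular counts, and miR-142-5p had 0 and 14. At the Intracellular level 0.12 and 0.279 EV counts were expected for them, so these zeros give no fold. The other 6 arms had EV counts, among them miR-150-5p (3 EV counts, 10.8 ± 18.8 CPM against 3.19 ± 1.38 CPM, below the filter) and miR-126a-5p (5 EV counts, 18.1 ± 12.6 CPM against 6.73 ± 4.24 CPM, edgeR adjusted p = 0.456). Mean CPM in EV against the cells was 410.1 against 359.9 for miR-146a-5p, 316.4 against 299.7 for miR-126a-3p and 14.5 against 20.8 for miR-142-3p. Their log2 fold changes were -0.35, -0.47 and -1.13 with TMM, and 0.19, 0.08 and -0.56 with total counts. The median of the tested arms was -0.35 with TMM and 0.19 with total counts. The list summed to between 823.1 and 1203 CPM in EV, against 369.2 to 1168 CPM inside the cells. Of 5 miRNAs enriched in muscle but widely made, 4 were tested, 1 was higher (miR-378a-3p) and 2 were lower (miR-26a-5p and miR-27b-3p), the latter 2 not with total counts. Over all tested miRNAs 25.3% were higher and 17.1% lower with TMM, and 32.6% and 1.22% with total counts. With 5 and 4 miRNAs tested, the calls do not set the leukocyte list or the muscle-enriched list apart from those shares. The muscle-enriched list summed to between 54235 and 59136 CPM in EV, against 40886 to 63045 CPM inside the cells. The part of blood or muscle RNA in the levels of the members was not tested.

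**Figure D5:**
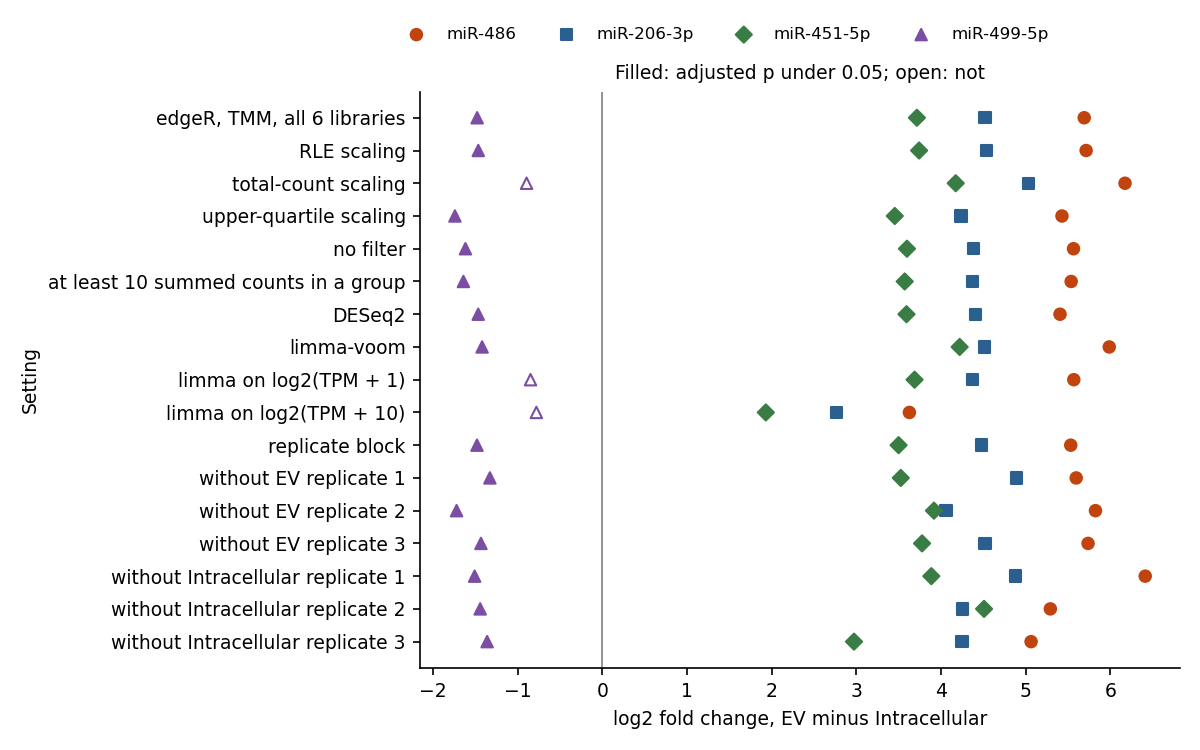
Log2 fold change, EV minus Intracellular, of the 4 tested members under edgeR with TMM scaling and 16 alternatives; filled symbols have an adjusted p under 0.05. miR-486, miR-206-3p and miR-451-5p stay above 0 and filled in every setting shown, and miR-499-5p stays below 0 but is open with total-count scaling and with limma on both log2(TPM) scales.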

How the data were processed

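Small RNA libraries were made by adapter ligation and PCR, per the labels' protocols, with no molecular identifiers named. The submitters' processing notes name cutadapt and the genome build Rnor_6.0. The aligner is not given in the sources used here, nor are the miRNA database and the counter. The deposited table of whole-number counts per mature miRNA was made by the authors and has 1071 rows, 552 of known and 519 of predicted miRNAs. The deposited TPM table equals counts per 1000000 within 4.78e-05.

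Counts were tested with edgeR 4.0.16 (R 4.3.3) by the quasi-likelihood test, 2-sided, using TMM factors, full library totals, filterByExpr (minimum count 10 and total 15) and robust dispersions, over all tested miRNAs, with Benjamini-Hochberg adjustment at 0.05. SE came from the F statistic, and intervals of pooled ratios are exact (conditional binomial). Alternatives were 3 other scalings, 2 other filters, DESeq2 1.42.0, limma-voom and limma 3.58.1 on log2(TPM + 1) and log2(TPM + 10), a replicate block and each library left out. All member arms are named, with up to 3 most alike miRNAs for each tested one. Up to 4 of each other list are named, save the platelet and leukocyte list, which is named in full. The members and lists were chosen with earlier results of these data known. Coordinates are not given, since the reference tables are of another build.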

Additional observations from a re-analysis of the deposited data

How the results depend on the processing

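Over the 16 alternatives miR-486, miR-206-3p and miR-451-5p kept their direction and call, with log2 fold changes of 3.63 to 6.41, 2.76 to 5.03 and 1.93 to 4.51. The lowest of each came from log2(TPM + 10), which by construction shrinks low levels. All settings but the 2 other filters used the rows kept by the standard filter, also where a library was left out. miR-486, miR-206-3p and miR-451-5p had passed it through EV alone, so these settings share that selection and are not independent support. miR-499-5p kept its direction (-1.74 to -0.78) and lost its call with total-count scaling (-0.90, adjusted p = 0.165), with limma on log2(TPM + 1) (-0.85, adjusted p = 0.146) and with limma on log2(TPM + 10) (-0.78, adjusted p = 0.136). Of all miRNAs, 83 were called higher and 56 lower, and with no filter 197 were higher, as more rows were tested. Lower calls numbered 4 with total-count scaling, 4 with limma on either log2 scale and 92 with upper-quartile scaling. With 1 library left out, lower calls ranged from 18 (without EV replicate 1) to 58, with 26 without EV replicate 2 and 36 without Intracellular replicate 3. Higher calls ranged from 63 to 91. None of the 6 other arms was tested in the fit with all libraries and the standard filter, and 0 were called with no filter.

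The labels do not say whether libraries of the same replicate number share a culture. Deviations of same-numbered libraries correlated at 0.0336, 0.0887 and -0.0232. EV replicates 1 and 2 correlated best with their own number, and EV replicate 3 did not. Correlations this weak, from shallow EV libraries, cannot decide whether the libraries are paired. With a replicate block the log2 fold changes were 5.53 for miR-486, 4.48 for miR-206-3p, 3.50 for miR-451-5p and -1.48 for miR-499-5p, all still called, with 87 higher and 46 lower calls. Depth limits the arms of miR-144, miR-133a, miR-133b and miR-499-3p, for which under 1 EV count was expected at the Intracellular level.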
